A study of Mus musculus with 48 samples.

Results

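Accessible chromatin around 9 core pluripotency factor genes, *Pou5f1*, *Sox2*, *Nanog*, *Sall4*, *Utf1*, *Lin28a*, *Zfp42*, *Dppa4* and *Dppa2*, was examined in 4 states of NODAL/Activin signalling. The peaks of the 4 deposited ATAC-seq lists were merged where they overlapped by at least 1 bp, and a merged region was taken as a member if any part of it lay within 50 kb of a RefSeq transcription start site of these genes, or within 130 kb for *Sox2*, whose distal control region in embryonic stem cells lies beyond the shorter window. In all, 156 of 287329 regions were members. There were 15 in the window of *Pou5f1*, 34 for *Sox2*, 19 for *Nanog*, 21 for *Sall4*, 20 for *Utf1*, 13 for *Lin28a*, 16 for *Zfp42*, 18 for *Dppa4* and 14 for *Dppa2*, and the windows of the last pair overlap, so that *Dppa4* and *Dppa2* together have 18 regions. Given the genes, regions were taken in by position alone, and by no measured value. The genes themselves were chosen with earlier results of these data known.

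The cells were P19, a mouse embryonic teratoma line, and no engineered allele is named for any of the states. Cells of the SB-431542 state were held overnight in 10 µM of this inhibitor of the NODAL and Activin type I receptors, washed, and kept in it for 1 h more in serum-containing medium. Cells of the Activin states had the same overnight block and wash, and then 20 ng/ml Activin for 1 h or 8 h. Untreated cells were given no inhibitor and represent chronic signalling through the NODAL and GDF3 that they secrete. Both biological replicates of a state were merged by the authors before peaks were called, so each state has 1 list, and with no spread among replicates no difference between states can be tested. Every comparison below is therefore a description of 4 merged samples of a single cell line, and "higher" or "lower" refers to those samples.

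In pluripotent cells, OCT4 (encoded by *Pou5f1*) and SOX2 bind DNA side by side and, with NANOG, occupy enhancers of their own genes and of one another's, which gives a network that sustains itself. *Nanog* is a target of SMAD2/3 in cells that depend on NODAL/Activin, and the same pathway later directs exit towards mesendoderm. Accessible chromatin marks places where nucleosomes have been displaced, as at an active promoter or an enhancer, and ATAC-seq reports it as the density of transposase insertions.

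The member regions were searched for short words known from these factors, and sequences are shown for the regions on which the results turn. Sequences are from the RefSeq mouse assembly GRCm38.p6, which is mm10. The rarest word searched was the OCT-SOX composite, a SOX core CATTGT followed by 1 base of any kind and then ATGC, on either strand. It was present in 3 of the 156 member regions, one each at *Sox2*, *Nanog* and *Utf1*, and in 0.259% of all regions. Each is shown on the strand that reads SOX core first, with 15 bases on either side and the composite in capitals. The *Sox2* element (chr3:34654034-34654074, plus strand) lay 4059 bp downstream of the start site, past the end of the gene. The *Nanog* element (chr6:122707402-122707442, minus strand) lay 67 bp upstream of the first start site. The *Utf1* element (chr7:139945670-139945710, minus strand) lay 1834 bp downstream of the start site, also past the end of its short gene.
Sox2: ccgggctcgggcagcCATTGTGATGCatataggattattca
Nanog: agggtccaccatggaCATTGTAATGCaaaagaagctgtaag
Utf1: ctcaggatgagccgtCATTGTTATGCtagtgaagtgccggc
Any pair of these agreed at 10 of the 11 positions of the element, which the search itself fixes, and at 16 to 18 of all 41 positions. Regions holding more bases hold more words, and among regions of about the same width as these (within 10%) the composite was found in 0.161% for *Sox2*, 0.460% for *Nanog* and 0.508% for *Utf1*.

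Promoter windows, from 250 bases before to 50 after the start, were available from RefSeq for 6 of the 9 genes, namely *Pou5f1*, *Sox2*, *Nanog*, *Utf1*, *Lin28a* and *Zfp42*, and *Sall4*, *Dppa4* and *Dppa2* are named only. The composite was in the *Nanog* window and in 0.0666% of all 27025 promoter windows. The OCT4 octamer ATGCAAAT was in the *Zfp42* window and in 1.97% of all windows, and the KLF word GGGTGTGG was likewise in the *Zfp42* window and in 4.09% of all. A SOX core alone, which is also contained in every composite, was in the windows of *Pou5f1*, *Nanog* and *Lin28a* and in 14.3% of all. Neither the FOXH1 word AATCCACA nor the SMAD palindrome GTCTAGAC was in any of the 6, against 1.01% and 0.248% of all windows. The promoters of *Nanog* (chr6:122707239-122707538, plus strand) and *Zfp42* (chr8:43306960-43307259, minus strand) are shown in the direction of their genes because both fall in peaks of all 4 lists, with the composite in capitals in the first, and the octamer and then the KLF word in the second, each on the opposite strand.
Nanog promoter: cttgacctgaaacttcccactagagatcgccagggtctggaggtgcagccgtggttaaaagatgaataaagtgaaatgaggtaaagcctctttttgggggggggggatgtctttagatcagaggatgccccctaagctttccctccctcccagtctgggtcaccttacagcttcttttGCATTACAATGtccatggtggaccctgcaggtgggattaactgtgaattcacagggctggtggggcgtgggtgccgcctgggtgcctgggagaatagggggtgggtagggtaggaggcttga
Zfp42 promoter: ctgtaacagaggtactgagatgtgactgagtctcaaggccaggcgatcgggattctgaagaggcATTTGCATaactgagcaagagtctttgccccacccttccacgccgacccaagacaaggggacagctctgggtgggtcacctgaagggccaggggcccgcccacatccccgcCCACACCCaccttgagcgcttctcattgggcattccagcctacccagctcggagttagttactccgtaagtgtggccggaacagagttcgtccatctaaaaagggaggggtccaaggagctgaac

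Of the words for factors that act with the pathway, the SMAD palindrome was in 3 member regions, 1 at *Dppa2* and 2 in the *Pou5f1* window, and the FOXH1 word was in 3, 1 at *Lin28a* and 2 in the *Sall4* window. Each was thus in 1.92% of member regions, compared with 0.858% of all regions for the SMAD palindrome and 3.83% for the FOXH1 word, and with 0.977% and 4.29% at the widths of the member regions. The KLF word was in 20 regions (12.8%), the octamer in 9 (5.77%) and the SOX core in 50 (32.05%), compared with 7.70%, 6.83% and 36.4% of all regions. At the widths of the member regions, 8.59% would hold the KLF word, 7.635% the octamer and 38.5% the SOX core. The octamer and the SOX core were thus below the share at like width. Windows of 75 bases on either side are shown, plus strand, for the SMAD palindrome 6.6 kb upstream of *Dppa2* (chr16:48303549-48303706), for the FOXH1 word inside *Lin28a* (chr4:134012437-134012594), and for the KLF word 2.0 kb upstream of *Pou5f1* (chr17:35503905-35504062), since each falls in a region described below.
Dppa2 SMAD palindrome: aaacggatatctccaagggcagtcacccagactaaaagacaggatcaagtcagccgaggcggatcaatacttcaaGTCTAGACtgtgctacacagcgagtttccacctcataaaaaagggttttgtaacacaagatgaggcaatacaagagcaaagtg
Lin28a FOXH1 word: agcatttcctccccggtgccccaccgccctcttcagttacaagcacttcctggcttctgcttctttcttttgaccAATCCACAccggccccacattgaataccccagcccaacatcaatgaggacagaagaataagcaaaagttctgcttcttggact
Pou5f1 KLF word: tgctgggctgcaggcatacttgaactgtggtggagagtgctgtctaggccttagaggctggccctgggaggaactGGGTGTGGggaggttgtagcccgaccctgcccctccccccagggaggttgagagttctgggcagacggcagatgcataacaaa
A match to a word is a description of the letters and not evidence of binding.

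A last pair of sequences comes from the regions whose enrichment differed in opposite directions over the states and which held none of the 6 words at their centres. These are the central 200 bases, on the plus strand, of the part covered by peaks in all 4 lists, for the region 4.6 kb upstream of *Nanog* (chr6:122702875-122703074) and the region 36.5 kb upstream of *Dppa4* (chr16:48247070-48247269).
Nanog upstream: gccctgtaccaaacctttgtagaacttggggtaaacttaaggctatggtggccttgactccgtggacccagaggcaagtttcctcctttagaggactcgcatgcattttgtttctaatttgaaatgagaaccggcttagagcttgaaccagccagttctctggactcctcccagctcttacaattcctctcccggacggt
Dppa4 upstream: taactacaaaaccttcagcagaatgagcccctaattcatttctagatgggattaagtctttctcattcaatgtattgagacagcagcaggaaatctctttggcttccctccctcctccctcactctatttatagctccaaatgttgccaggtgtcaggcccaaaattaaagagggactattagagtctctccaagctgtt
The G and C content was 49.5% in the *Nanog* sequence and 42.5% in the *Dppa4* sequence.

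Each list held between 209212 peaks (8 h Activin) and 234758 peaks (SB-431542). Read totals are not part of the lists, and the lowest local background of a list, which follows its depth, in the 1 h list was 92.6% of that in the SB-431542 list, in the 8 h list 79.0% and in the untreated list 84.8%. The SB-431542 list was thus the deepest, and a weak peak missing from another list may be missing through depth, which was not tested. Fold enrichment is the authors' ratio of the mean pileup of a peak to the local background in the same sample. To compare lists of different depth, the highest fold enrichment in a region was expressed as its percentile among the 162505 regions shared by the 4 lists. The term shift is used for the difference in percentile, signalling state minus SB-431542. All 8 housekeeping promoters and 28 of 32 promoters of other pluripotency genes carried a peak in every list, and 72.5% over all coding genes. Among marker genes of other tissues it was 3 of 6 for blood, 2 of 6 for muscle, 1 of 6 for liver and 5 of 6 for neural genes. Since neural genes stood near the pluripotency genes, these counts alone do not establish cell identity.

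The accessible landscape of these genes was present in every state about as often as elsewhere in the genome. A peak in all 4 lists was found at 94 of the 156 member regions, 60.3% (95% Wilson interval 52.4 to 67.6, covering counting error only), while 56.6% of all regions had one. The share was 73.3% at *Pou5f1* (11 of 15), 71.4% at *Sall4* (15 of 21), 70.0% at *Utf1* (14 of 20), 69.2% at *Lin28a* (9 of 13), 63.2% at *Nanog* (12 of 19), 61.8% at *Sox2* (21 of 34) and 18.8% at *Zfp42* (3 of 16), while *Dppa4* and *Dppa2* together had 9 of 18. Close to the start sites the regions were most often shared, with 16 of 19 within 5 kb, 69 of 116 from 5 to 50 kb and 9 of 21 beyond 50 kb. Shares by distance were not computed for all regions, so this is not shown to be particular to these genes. Regions beyond 50 kb were nearly all at *Sox2*. Of the 94 shared regions 44 were intergenic, 30 intronic, 13 at promoters and 7 exonic, and of the 62 others 42 were intergenic. Of these 62, 28 reached a -log10 q of 5 in any list and 9 reached 10, counts that were not made for all regions.

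All 9 genes had a peak in their promoter interval, which reaches from 1000 bp before a start site to 100 bp past it, in at least 3 lists, and for 8 of them in every list. Among all 21000 coding genes, 72.5% had one in every list. The exception was *Dppa4*, which encodes a chromatin factor of early embryos and acts with DPPA2. A narrow peak of 207 to 221 bp, 0.8 kb upstream of its start site, reached 2.00 with SB-431542, 1.79 after 1 h Activin and 1.83 in untreated cells, and no peak was called there after 8 h Activin, with a -log10 q of 4.77 where it was strongest. The *Dppa4* start site itself was covered by no peak of any list. The nearest region inside the gene (chr16:48284024-48285859) began 289 bp past it.

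By fold enrichment the start sites of these genes stood in the middle of all shared regions, and low among promoters. The median percentile of the 8 shared promoters was 58.5 with SB-431542, 63.3 after 1 h Activin, 61.2 after 8 h and 60.7 in untreated cells, while the median over coding promoters was 85.5, 87.1, 84.1 and 84.4 in the same order. Among coding promoters alone and with SB-431542, *Sox2* ranked at percentile 6.22, *Sall4* at 9.78, *Lin28a* at 10.0, *Nanog* at 12.0, *Utf1* at 17.9, *Pou5f1* at 18.9, *Dppa2* at 18.9 and *Zfp42* at 60.4. Fold enrichment divides by the local background, which was far above that of most regions at 6 of the genes. With SB-431542 the estimated local background was 131 extended reads per base at the *Pou5f1* start region, 155 at *Sox2*, 198 at *Nanog*, 97.4 at *Sall4*, 120 at *Utf1* and 103 at *Lin28a*, while its median over all regions of that list was 30.5. At the *Zfp42* start region it was 31.4, at *Dppa2* 33.1 and at the region inside *Dppa4* 29.1. Ranked by estimated pileup instead, the start regions stood at percentile 97.4 for *Nanog*, 94.8 for *Pou5f1*, 93.6 for *Utf1*, 93.0 for *Sox2*, 88.8 for *Lin28a*, 87.6 for *Sall4*, 76.3 for *Zfp42*, 60.1 for *Dppa2* and 16.6 for the region inside *Dppa4*. The genes thus formed a group of 6 with a high estimated local background and a group of 3 with a background near the floor of the list. The background is estimated from the same sample, so a wide, strong peak can itself raise it. The estimate also treats the averaged values of a peak as those of 1 point, and the error from this was not measured. Whether the signal is raised beyond the peaks was not tested.

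**Figure D1:**
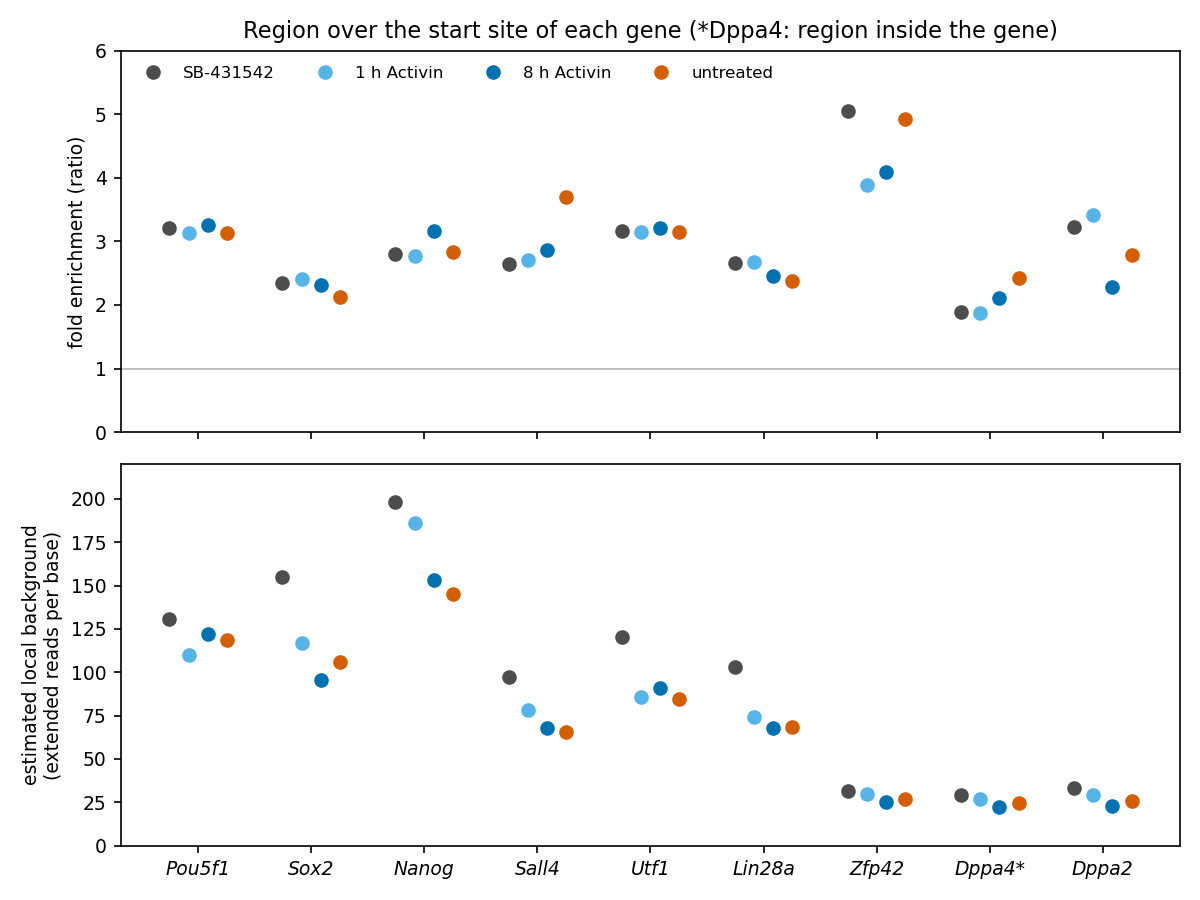
Fold enrichment (upper panel, ratio) and estimated local background (lower panel, extended reads per base) of the start region of each of the 9 genes. There is 1 point per state. For *Dppa4*, marked with an asterisk, the region inside the gene is drawn because no peak covers its start site. The local background with SB-431542 lies between 97.4 and 198 at *Pou5f1*, *Sox2*, *Nanog*, *Sall4*, *Utf1* and *Lin28a*, and between 29.1 and 33.1 at *Zfp42*, *Dppa4* and *Dppa2*.

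The start region of *Pou5f1* (chr17:35503821-35506261), which takes in the promoter, the proximal enhancer and the distal enhancer known from mouse cells, was among the steadiest. Its fold enrichment was 3.22 with SB-431542, 3.13 after 1 h Activin, 3.26 after 8 h Activin and 3.14 in untreated cells, as 1 peak of 2311 to 2431 bp in each list. The percentile differed from that with SB-431542 by 3.41, 2.65 and 0.44 points. Within 5 kb upstream a second, weak region at 3.6 kb (chr17:35502190-35502713) had fold enrichments of 1.74, 1.66, 1.67 and 1.64 in the order of SB-431542, 1 h, 8 h and untreated. A 236-bp peak inside the gene, 3.5 kb from the first start site, was called with SB-431542 alone (fold enrichment 1.74).

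*Utf1*, which encodes a chromatin-bound factor of undifferentiated cells, also had a start region (chr7:139943551-139946067) of similar height in the 4 lists, which holds the composite shown above. Fold enrichments were 3.16 with SB-431542, 3.15 after 1 h Activin, 3.21 after 8 h Activin and 3.15 in untreated cells, and the shifts were 5.08, 2.74 and 1.99 points. In untreated cells the region was split into a peak of 1032 bp over the start site, to which the 3.15 belongs, and one of 523 bp that holds the composite, with 3.02, while it was a single peak of 2383 to 2498 bp in the other lists. The *Nanog* start region (chr6:122706609-122709153), with its composite just upstream of the gene, had 2.81 with SB-431542, 2.78 after 1 h Activin, 3.16 after 8 h Activin and 2.83 in untreated cells. Its shift of 10.8 points at 8 h is past the 10 points used as a limit, and those at 1 h and in untreated cells, 4.96 and 2.71, are not. Ranked by -log10 q, the shift at 8 h was 4.27 points, and by estimated pileup 1.11 points.

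At *Sox2*, the partner of OCT4, the start region (chr3:34647840-34651352) covered the start and the first part of the single-exon gene and was between 3340 and 3509 bp wide in each list. Fold enrichments of 2.35, 2.40, 2.31 and 2.12 in the order of SB-431542, 1 h, 8 h and untreated gave shifts of 8.18, -0.18 and -10.3 points, the last of which was -2.97 when ranked by estimated pileup. *Lin28a*, which encodes an RNA-binding protein that blocks maturation of let-7 microRNAs, had the widest start region (chr4:134016739-134020866), between 4062 and 4128 bp. Its fold enrichments were 2.67, 2.68, 2.45 and 2.37 in the same order, with shifts of 6.34, -5.77 and -9.34 points.

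*Sall4* encodes a zinc finger repressor that is needed for the pluripotent state. At its start region (chr2:168764482-168767470) fold enrichment was 2.65 with SB-431542, 2.71 after 1 h Activin, 2.87 after 8 h Activin and 3.70 in untreated cells. The value for untreated cells belongs to a peak of 669 bp, since the region was split into 2 peaks there, while it was a single peak of 2831 to 2976 bp in the other lists. Its shift of 26.9 points in untreated cells came down to 3.09 when the peaks of the region were averaged by width.

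*Zfp42*, known as *Rex1* and a marker of naive pluripotent cells, had the start region with the highest fold enrichment of the 9 (chr8:43306852-43307522), and it holds the promoter shown above. Values were 5.06 with SB-431542, 3.88 after 1 h Activin, 4.10 after 8 h Activin and 4.92 in untreated cells, with shifts of -8.83, -8.67 and 1.08 points. The values with SB-431542 and in untreated cells were thus nearer to each other than either was to those after 1 h or 8 h Activin. *Dppa2*, the partner of *Dppa4*, had 3.22 with SB-431542, 3.42 after 1 h Activin, 2.28 after 8 h Activin and 2.79 in untreated cells at its start (chr16:48310036-48311474). The peak was 1419, 720, 521 and 1187 bp wide in the same order, and the shifts were 9.19, -27.7 and -8.65 points, so that 8 h Activin stood lowest. Of the 8 shared promoters, 1 was over 10 points higher at 8 h (*Nanog*) and 1 in untreated cells (*Sall4*), and 1 was over 10 points lower at 8 h (*Dppa2*) and 1 in untreated cells (*Sox2*). Over all coding promoters 2.71%, 2.81% and 2.92% were higher at 1 h, at 8 h and in untreated cells, and 1.99%, 5.41% and 6.12% were lower. Coding promoters stood higher on the scale (median percentile 85.5 with SB-431542, and 58.5 for the 8), so these shares are not matched for starting percentile.

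Across all member regions the shares past 10 points in 1 h Activin cells were small. The shared member regions were stronger than shared regions at large, with a median -log10 q of 31.5 against 14.8 with SB-431542. The shares below are not matched for strength, so they do not show a trait of these genes. Of the 94 shared regions, 4 were over 10 points higher than with SB-431542 (4.26%, 95% Wilson interval 1.67 to 10.4) and 8 were lower (8.51%, 4.38 to 15.9), while 11.3% of all shared regions were higher and 12.1% lower. After 8 h Activin 18 were higher (19.1%, 12.5 to 28.3) and 16 lower (17.0%, 10.8 to 25.9), near the 18.7% and 18.5% of all regions. In untreated cells 26 were higher (27.7%, 19.6 to 37.4) and 20 lower (21.3%, 14.2 to 30.6), and of all regions 19.9% and 18.8%. The intervals treat neighbouring regions of the same loci as independent, so they do not test a difference from all regions. With only peaks of a -log10 q of at least 5, the share higher at 1 h was instead 17.3% (14 of 81), above the 12.6% of all regions. By estimated pileup 14.9% were higher in untreated cells, below the 16.6% of all regions. The median shift over the 94 was 0.93, 0.09 and -0.58 points at 1 h, 8 h and in untreated cells. Single regions ran from -17.4 to 26.4 points at 1 h, from -60.1 to 34.0 at 8 h and from -43.4 to 71.2 in untreated cells.

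**Figure D2:**
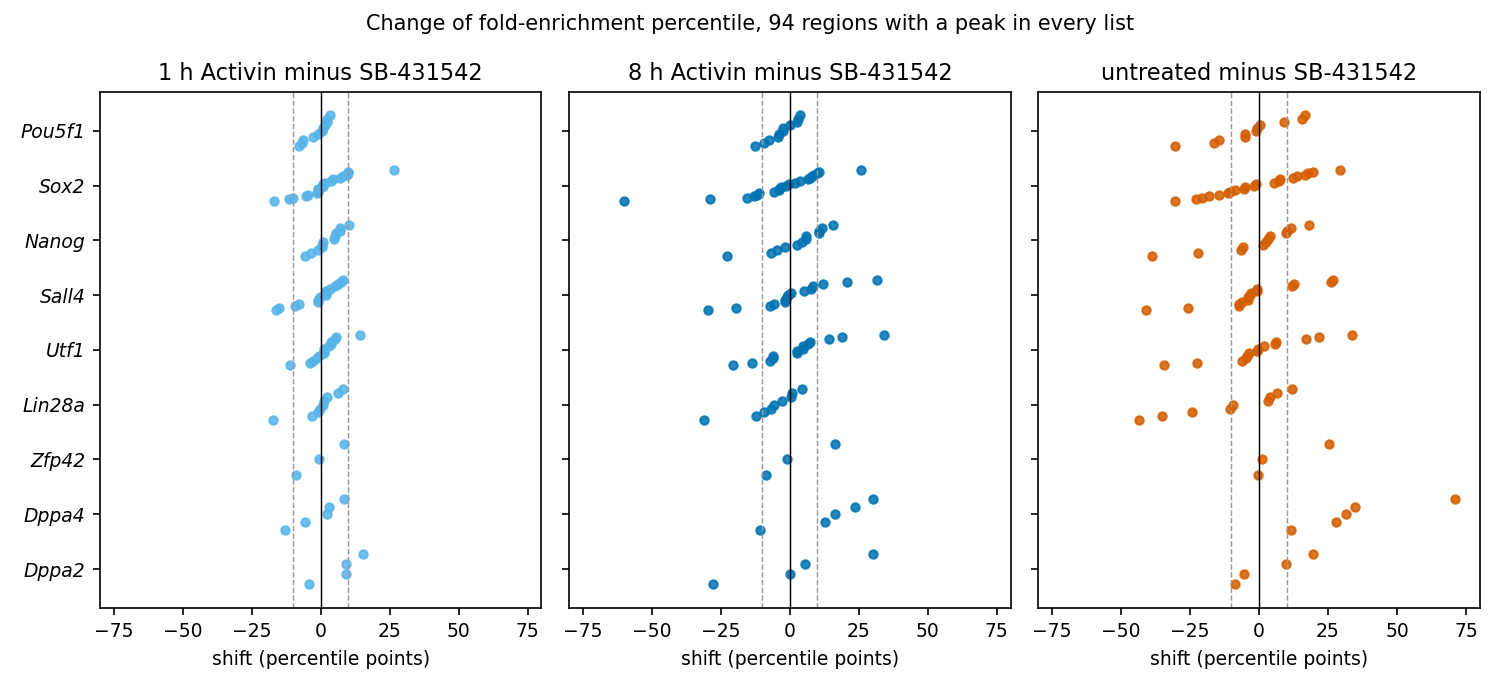
Shift in percentile of fold enrichment against SB-431542 (horizontal axis, percentile points) for the 94 member regions with a peak in every list. Regions are grouped by gene (vertical axis), in 1 panel per comparison. Each point is a region, and dashed lines mark shifts of 10 and -10 points. The points spread least at 1 h. In untreated cells the *Dppa4* and *Dppa2* windows hold 6 of 9 regions above 10 points and none below -10, with the highest at 71.2.

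Few member regions had a peak after 1 h Activin but none with SB-431542. Relative to SB-431542, 3 of the 156 regions were gained after 1 h Activin (1.92%), 16 after 8 h (10.3%) and 20 in untreated cells (12.8%), and over all regions 9.48%, 8.12% and 10.6%. Lost regions numbered 20 at 1 h (12.8%), 26 at 8 h (16.7%) and 18 in untreated cells (11.5%), and over all regions 9.86%, 17.1% and 15.6%. Gained and lost shares were likewise not matched for peak strength. A peak present in 8 h and untreated cells but in neither SB-431542 nor 1 h cells was found at 10 member regions (6.41%, and 2.65% of all regions). The opposite pattern was found at 7 (4.49%, and 6.50% of all). Peak width was mostly similar between states. The highest peak of a region was over 1.5 times wider than with SB-431542 at 2, 6 and 9 of the 94 regions in 1 h, 8 h and untreated cells (2.13%, 6.38% and 9.57%), and at 9.41%, 8.29% and 11.01% of all shared regions. It was over 1.5 times narrower at 10, 11 and 11 (10.6%, 11.7% and 11.7%), and at 9.30%, 15.1% and 12.5% of all shared regions.

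*Nanog*, the gene of a homeodomain factor, showed different patterns at its promoter and upstream of it. At its start region only the 8 h shift was past 10 points. The region centred 4.6 kb upstream (chr6:122701646-122704163), where an enhancer active in embryonic stem cells is known, stood lowest in untreated cells. Its fold enrichment was 3.52 with SB-431542, 3.09 after 1 h Activin, 2.55 after 8 h Activin and 2.18 in untreated cells, with -log10 q of 166, 119, 53.7 and 29.6 in the same order. Duration of signalling cannot be told apart here from time after the wash, or from the lack of a block in untreated cells. At this upstream region the values were as follows. The shifts were -3.59, -22.7 and -38.9 points at 1 h, 8 h and in untreated cells, and 1.62% of all shared regions were this far down or further in untreated cells. Estimated pileup was 700, 606, 374 and 284 extended reads per base, and relative to the median of all shared regions it differed from SB-431542 by 0.04, -0.51 and -1.03 on the log2 scale. The local background was also lower, 129 in untreated cells and 198 with SB-431542, and ranked by pileup the region stayed near the top in each list, at percentile 98.7, 99.0, 96.7 and 93.7, a shift of -4.95 points in untreated cells. The peak was between 2024 and 2430 bp wide in all 4 lists, so the difference was in height and not in extent.

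A further *Nanog* region 17.7 kb upstream (chr6:122689594-122690056) had fold enrichments of 3.44 with SB-431542 and 2.48 after 1 h Activin, with -log10 q of 31.3 and 14.1, and no peak after 8 h or in untreated cells. It was the lost region with the highest -log10 q among all members in both comparisons. Not every upstream region shared the pattern. One 13.6 kb upstream had 3.36, 3.46, 3.94 and 3.40 in the order of SB-431542, 1 h, 8 h and untreated, and one 29.4 kb upstream had 1.89, 1.84, 2.16 and 2.22. Over the 12 shared regions of *Nanog*, 4 were over 10 points higher and 1 lower after 8 h, and 3 higher and 2 lower in untreated cells. Of all shared regions, 18.7% were higher and 18.5% lower after 8 h, and 19.9% and 18.8% in untreated cells.

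**Figure D3:**
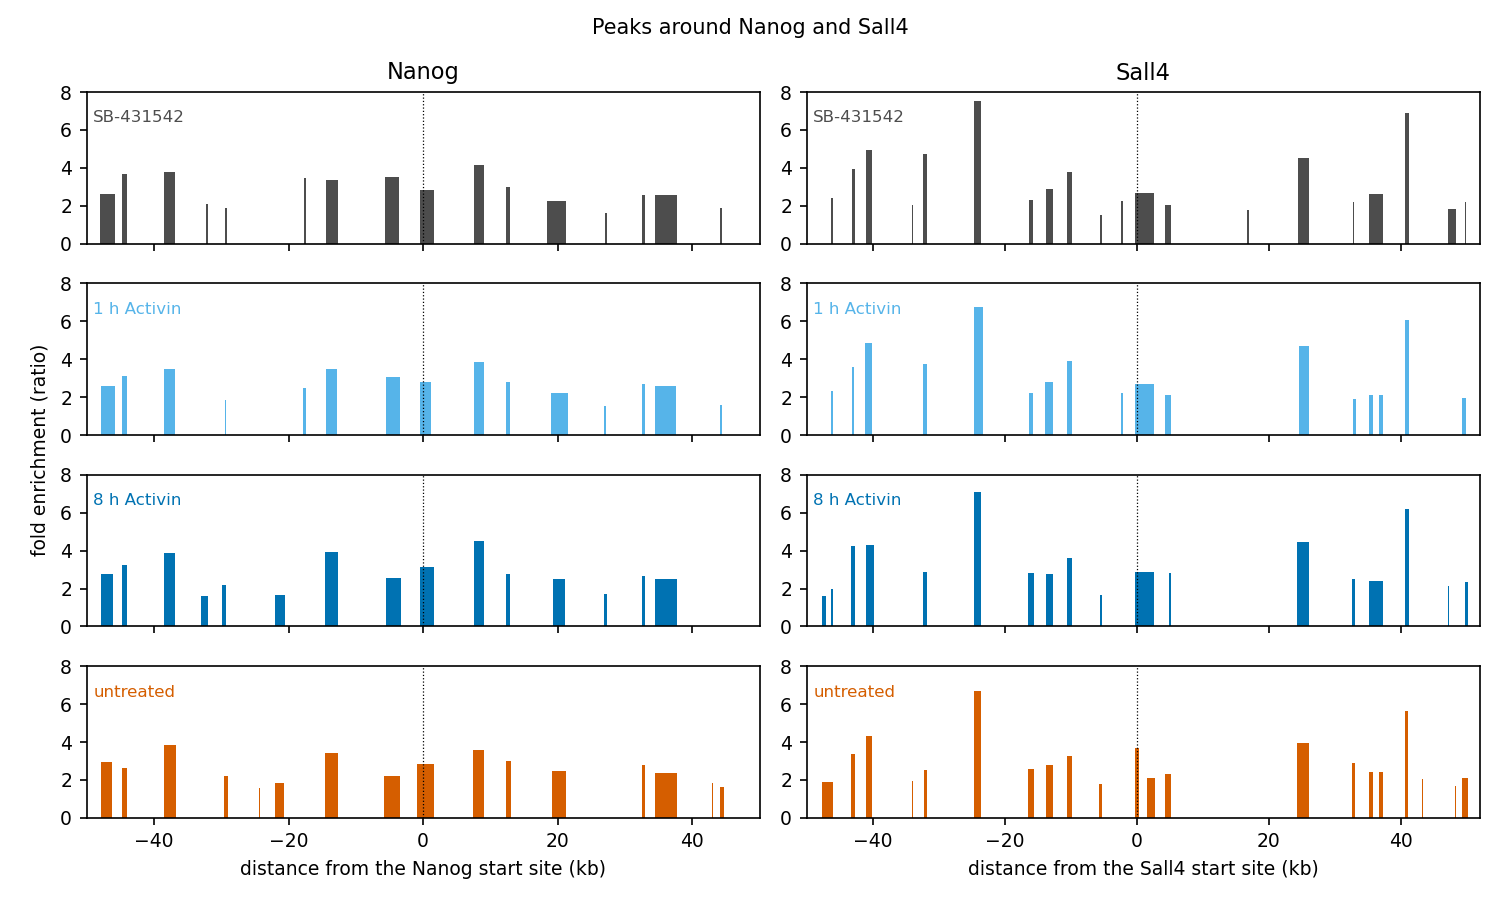
Peaks around *Nanog* and *Sall4* by distance from the start site (horizontal axis, kb), with 1 row per state; each bar spans a peak, the narrowest being widened so as to be visible, and its height is the fold enrichment (ratio). At 4.6 kb upstream of *Nanog* the height is 3.52 with SB-431542, 3.09 and 2.55 after 1 h and 8 h Activin and 2.18 in untreated cells, and at 32.0 kb upstream of *Sall4* it is 4.75, 3.77, 2.86 and 2.51.

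*Sall4* had a region 32.0 kb upstream (chr2:168798898-168799568, intergenic) where fold enrichment was also lowest in untreated cells. Fold enrichment there was 4.75 with SB-431542, 3.77 after 1 h Activin, 2.86 after 8 h Activin and 2.51 in untreated cells, and the shifts were -7.81, -29.6 and -41.1 points. By estimated pileup its shift in untreated cells was -34.1 points, against -4.95 at the *Nanog* region. A neighbour 23.9 kb upstream (chr2:168790459-168791836) held the highest fold enrichment of the *Sall4* window, 7.52, 6.78, 7.11 and 6.67 in the same order, and stayed between percentile 98.1 and 98.8 with SB-431542 and in untreated cells. Inside *Sall4*, 4.8 kb from its start, an intronic region had 2.06, 2.1, 2.82 and 2.29, a shift of 31.4 points at 8 h. The 8 h peak there was 336 bp wide, against 873 bp with SB-431542, and by estimated pileup the shift was 7.74 points. In the intron of the neighbouring gene *Atp9a*, 36.3 kb downstream of the *Sall4* start, the shift at 1 h was -16.2 points (2.12 after 1 h Activin, 2.64 with SB-431542), and -4.43 by pileup.

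*Lin28a* had the lowest median shift of the 9 windows in untreated cells, -9.34 points over 9 regions, after 0.68 at 1 h and -5.77 at 8 h. The intronic region 6.5 kb into the gene (chr4:134011181-134013484), which holds the FOXH1 word shown above, had 4.52 with SB-431542, 4.24 after 1 h Activin, 3.71 after 8 h Activin and 2.96 in untreated cells. Its highest peak was 2076, 2273, 812 and 298 bp wide in the same order, and -log10 q was 125, 78.9, 34.6 and 23.9. The region was 1 peak with SB-431542 and after 1 h and was split into 2 peaks after 8 h and in untreated cells. In untreated cells these had nearly the same fold enrichment, 2.96 over 298 bp and 2.94 over 785 bp, so the widths of the highest peak are not those of 1 interval. A region at 48.4 kb, in an exon of *Dhdds* and 2.4 kb from the start of *Hmgn2*, had 2.69, 2.50, 1.97 and 1.77, with shifts of -31.1 points at 8 h and -43.4 in untreated cells, and may belong to those genes and not to *Lin28a*. Another on the far side, 43.2 kb upstream, was the lowest of all member regions at 1 h (-17.4 points, with 1.67 after 1 h Activin and 1.99 with SB-431542).

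The large *Sox2* window held regions of either direction. The region with the composite, centred 3.9 kb downstream (chr3:34653673-34654214) and known in mouse embryonic stem cells as the downstream enhancer SRR2, had fold enrichments of 2.27 with SB-431542, 2.87 after 1 h Activin, 2.45 after 8 h Activin and 2.59 in untreated cells. Its shift of 26.4 points was the highest of all members at 1 h, and 0.625% of all shared regions lay this far up. The estimated pileup, however, was 231 after 1 h and 256 with SB-431542, and the local background 79.7 and 112, so that the ratio was higher at 1 h over a lower background. Ranked by pileup the shift was 2.17 points. The peak was 318 bp wide at 1 h and 542 bp with SB-431542.

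In an intron of the overlapping non-coding gene *Sox2ot*, 19.6 kb upstream of *Sox2* (chr3:34630133-34630670), fold enrichments were 3.05 with SB-431542, 2.83 after 1 h Activin, 1.59 after 8 h Activin and 2.93 in untreated cells. Only the 8 h list was low, with a -log10 q of 1.12 near the lowest in the lists (1.01), and the shift of -60.1 points there was the lowest of all member regions, with 0.0868% of all shared regions this far down. A region 25.9 kb upstream was seen in the other direction, with no peak with SB-431542 or after 1 h and values of 2.45 after 8 h Activin and 2.68 in untreated cells. At 98.7 kb upstream (chr3:34551147-34551463) fold enrichment was 3.02, 2.31, 2.16 and 2.14 in the order of SB-431542, 1 h, 8 h and untreated, with shifts of -17.0, -28.9 and -30.3 points.

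The distal control region of *Sox2* in mouse embryonic stem cells lies about where 3 shared regions were found, 101.7, 107.3 and 110.8 kb downstream and all intergenic. In the middle one (chr3:34756314-34758261) fold enrichment was 3.49 with SB-431542, 3.79 after 1 h Activin, 3.88 after 8 h Activin and 4.76 in untreated cells, with shifts of 9.71, 8.15 and 19.6 points. It was split into 2 peaks in untreated cells, where the higher was 526 bp wide. Relative to the median region its pileup differed from SB-431542 by -0.04, 0.55 and 0.47 on the log2 scale. Ranked by estimated pileup it stood at percentile 85.4 with SB-431542, 85.7 after 1 h, 92.2 after 8 h and 92.7 in untreated cells. The first (chr3:34751047-34752433) had 2.43, 2.1, 2.70 and 2.94 in the same order, and the last (chr3:34759949-34761687) had 2.76, 2.54, 2.35 and 2.32. Ranked by estimated pileup, the last stood at percentile 73.9 with SB-431542, 66.4 after 1 h Activin, 77.8 after 8 h Activin and 74.2 in untreated cells, so its lower fold enrichment after 8 h and in untreated cells was not matched by a lower rank in pileup. Weak peaks at 89.5, 120 and 122.2 kb were missing from 1 or more lists, and the one at 122.2 kb, in an exon of *Gm38509*, was the lost region with the highest -log10 q at 1 h (10.4).

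**Figure D4:**
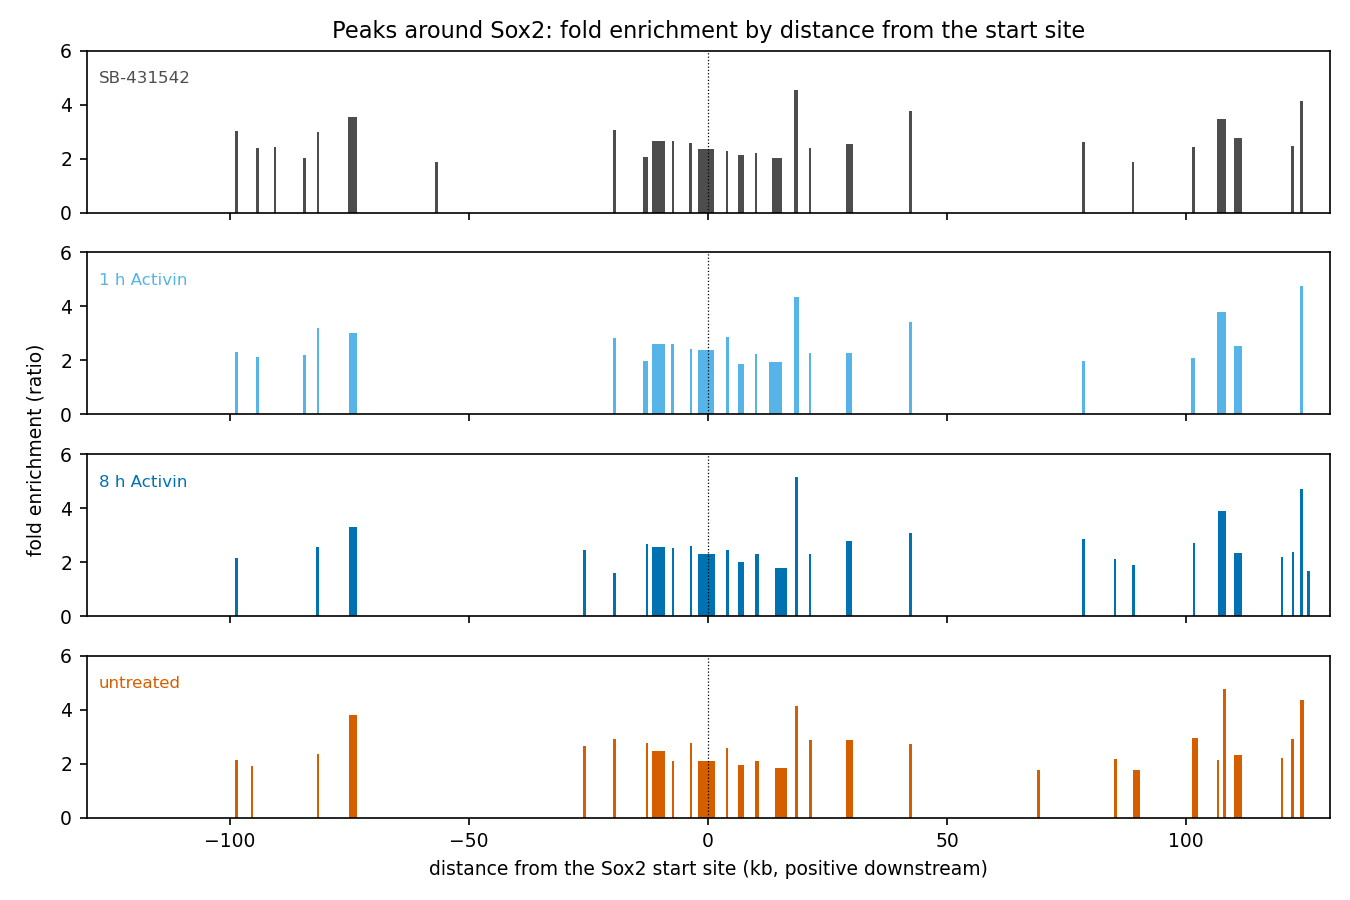
Peaks of the *Sox2* window by distance from the start site (horizontal axis, kb), with 1 row per state; bars span peaks, with narrow ones widened so as to be visible, and their height is the fold enrichment (ratio). The group at 101.7, 107.3 and 110.8 kb is present in each row, with 3.49, 3.79, 3.88 and 4.76 at the middle region in the order of the rows, and at 19.6 kb upstream the 8 h row is low at 1.59.

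Around *Dppa4* and *Dppa2* most shared regions stood higher in untreated cells than with SB-431542. Of the 9 shared regions of this locus, 5 were over 10 points higher and 2 lower after 8 h Activin, and 6 were higher and none lower in untreated cells. Of all shared regions, 18.7% were higher and 18.5% lower after 8 h, and 19.9% and 18.8% in untreated cells. The 9 are neighbours at a single locus. The median shift in the *Dppa4* window was 3.09, 12.8 and 19.7 points at 1 h, 8 h and in untreated cells. The region 49.6 kb upstream (chr16:48233799-48234527) had fold enrichments of 1.88 with SB-431542, 1.88 after 1 h Activin, 2.46 after 8 h Activin and 4.38 in untreated cells, with -log10 q of 3.72, 3.41, 8.37 and 38.1. Its shift of 71.2 points in untreated cells was the highest of all member regions, and 32 of the 162505 shared regions lay this far up. Its near edge is 49.2 kb from the start site and so just inside the window.

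The region 36.5 kb upstream of *Dppa4* (chr16:48246736-48247672), whose centre is shown above, had 3.32 with SB-431542, 3.49 after 1 h Activin, 4.99 after 8 h Activin and 6.58 in untreated cells. Its -log10 q was 22.3, 23.5, 43.9 and 96.7, and its width was between 831 and 937 bp in each list. Estimated pileup was 97.6 after 1 h, 121 after 8 h and 210 in untreated cells, against 99.2 with SB-431542, or 0.22, 0.68 and 1.35 on the log2 scale relative to the median region. Since the local background here was between 23.5 and 31.1 in all states, the difference lay in the pileup. At 17.7 kb upstream values were 1.79, 1.66, 2.06 and 2.46 in the order of SB-431542, 1 h, 8 h and untreated, and inside *Dppa4* 1.89, 1.88, 2.11 and 2.43. Both regions were weak with SB-431542, with a -log10 q of 2.99 and 4.01. The region 6.4 kb upstream of *Dppa2* (chr16:48303397-48304298), with the SMAD palindrome, had instead its highest value at 8 h, with 2.27, 2.50, 3.18 and 2.48, and shifts of 15.3, 30.1 and 9.88 points. The start region of *Dppa2* itself went the other way at 8 h, as given above.

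**Figure D5:**
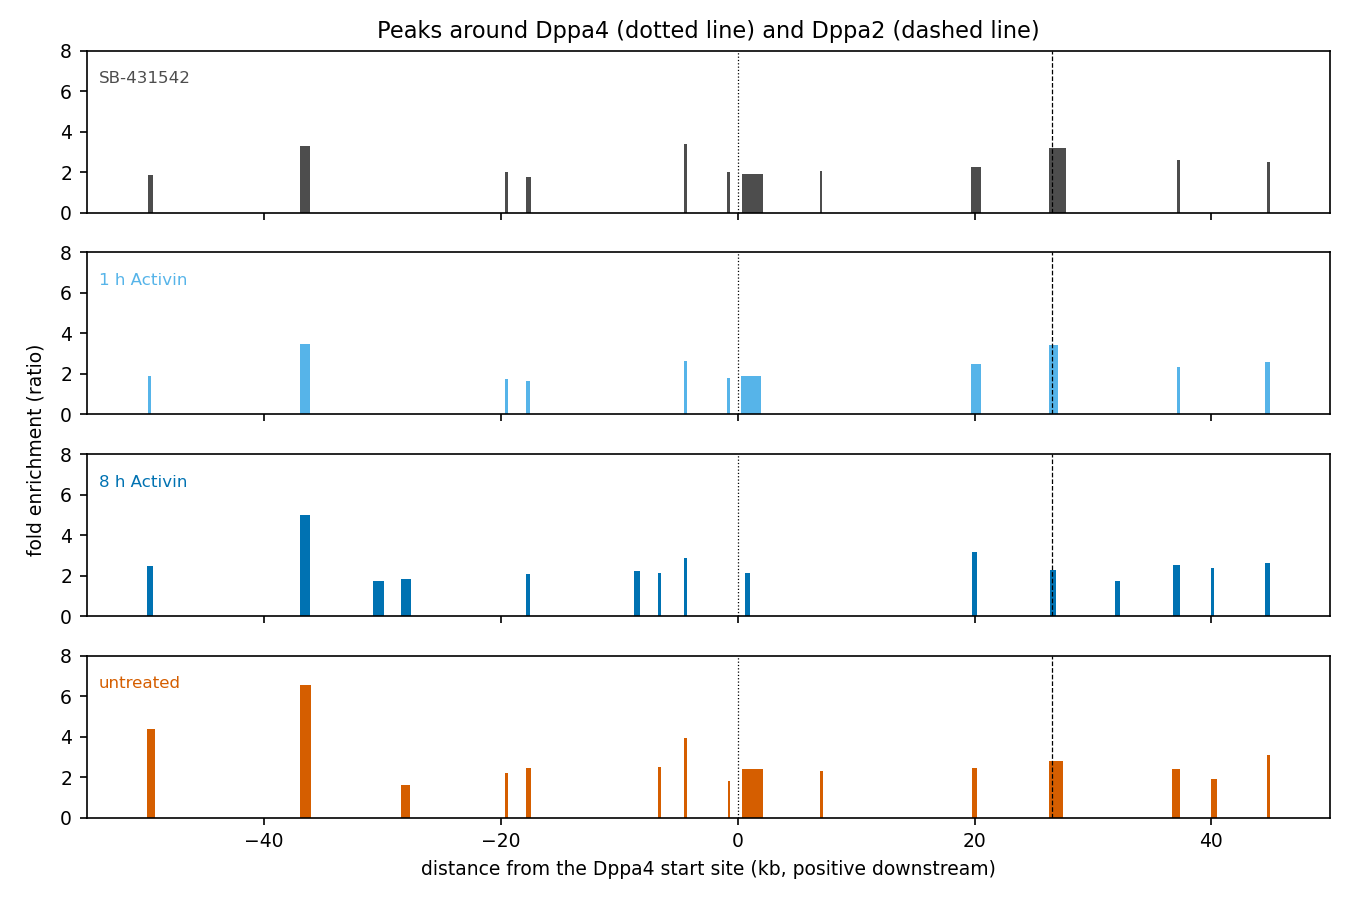
Peaks of the *Dppa4* and *Dppa2* locus by distance from the *Dppa4* start site (horizontal axis, kb), with 1 row per state; bars span peaks, narrow ones being widened so as to be visible, and their height is the fold enrichment (ratio). The regions 49.6 and 36.5 kb upstream reach 4.38 and 6.58 in untreated cells, and 1.88 and 3.32 with SB-431542.

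In the windows of *Pou5f1* and *Utf1*, whose start regions differed by few percentile points, other regions differed more. At 20.6 kb upstream of *Pou5f1* (chr17:35483899-35487058), in an intergenic stretch nearest to the histocompatibility gene *H2-Q10*, fold enrichment was 4.89 with SB-431542, 3.86 after 1 h Activin, 3.73 after 8 h Activin and 2.87 in untreated cells, while the highest peak was 433, 483, 1406 and 3081 bp wide. The region held 2 peaks in each list but that of untreated cells, where a single peak spanned both. A region 40.3 kb upstream of *Pou5f1* went the other way, with 3.63, 3.30, 3.69 and 4.58. In the *Utf1* window, a region 31.8 kb downstream in an intron of *Spef1l* (chr7:139975236-139976158) had 4.02, 4.00, 2.88 and 2.46 and shifts of 3.82, -20.6 and -34.3 points. One 16.9 kb downstream, nearest to *Mir202*, had 1.79, 1.78, 2.44 and 2.44, with shifts of 34.0 points at 8 h and 33.6 in untreated cells. At the start of *Adam8*, 48.6 kb downstream of *Utf1*, fold enrichment was 5.51 after 1 h and 4.16 with SB-431542 (14.4 points), and the shift was 6.96 by -log10 q and 2.30 by pileup. These last regions are nearer to other genes than to the pluripotency gene of the window.

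*Zfp42* stood apart in how few of its regions were shared. An intergenic region 26.6 kb upstream (chr8:43333319-43333894) had the highest fold enrichment of the window, with 7.75 with SB-431542, 6.81 after 1 h Activin, 7.02 after 8 h Activin and 7.14 in untreated cells. This placed it at percentile 98.8 in untreated cells and 99.1 with SB-431542. The third shared region, in an intron 7.0 kb into the gene, had 2.63, 2.71, 3.18 and 3.58, with shifts of 8.53, 16.5 and 25.3 points. Of the other 13, one 24.9 kb upstream had 3.03 with SB-431542 and 2.60 after 1 h Activin (-log10 q of 20.9 and 12.4) and no peak in the other lists. One, 21.9 kb upstream, was the gained region with the highest -log10 q at 1 h, with a fold enrichment of 1.96 and a -log10 q of 4.33. It had no peak after 8 h, and 2.05 in untreated cells.

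The promoters of 32 other pluripotency genes, from a list chosen by their known roles, give a setting for the 9. In 28 the promoter carried a peak in every list, as did 72.5% over all coding genes, and *Nr5a2*, *Dppa5a*, *Dppa3* and *Tcl1* had none in any. The median percentile of the 28 was 65.5 with SB-431542, 69.5 after 1 h Activin, 65.9 after 8 h Activin and 65 in untreated cells. Over 10 points higher were 3 at 1 h (10.7%), 4 at 8 h (14.3%) and 3 in untreated cells (10.7%). Over all coding promoters the shares were 2.71%, 2.81% and 2.92%. Coding promoters had a median percentile of 85.5 with SB-431542, where less of the scale is left for a rise. The shares are thus not matched for starting percentile. In untreated cells 1 was lower (3.57%), and none was at 1 h or 8 h. Over all coding promoters 1.99%, 5.41% and 6.12% were lower at 1 h, at 8 h and in untreated cells. *Prdm14*, which encodes a repressor of germ cells and naive cells, had a shift of 10.9 points at 8 h. The lowest were *Lin28b*, the paralogue of *Lin28a*, at -8.40 points, and *Pou3f1*, a POU factor of the later epiblast, at -6.69 points.

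The edge of the windows is arbitrary. The outermost regions inside the 50-kb windows had their near edge 45.8 to 49.9 kb from a start site and fold enrichments with SB-431542 from 1.88 at *Dppa4* to 5.98 at *Utf1*, and the nearest regions outside lay 50.8 to 83.1 kb away, with values up to 3.78 at *Utf1*. For *Sox2* the outermost region inside, at 125.3 kb, had a peak in the 8 h list alone (1.67), and the nearest outside, at 130.7 kb, had 3.25 with SB-431542.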

How the data were processed

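The authors performed ATAC-seq on P19 cells in 4 states with 2 biological replicates and 100000 cells per reaction. The labels name 48 libraries (6 for each replicate of a state), while the study's methods describe fewer sequenced samples. Reads were trimmed with cutadapt 1.9.1, aligned to mm10 with BWA 0.6.2, filtered with bedtools 2.26.0, merged per state and cleared of duplicates with Picard, and broad peaks were called by MACS2 2.1.1.20160309, no control library being used. The fold enrichment deposited by the authors is a ratio of mean pileup to the local background that MACS2 estimates. The -log10 values of p and q that the authors deposited belong to a Poisson test of that pileup within 1 sample, averaged over the peak, and do not compare states. The lists hold neither counts per replicate nor read totals, and reads were not analysed here.

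Peaks were merged across lists and described with Python 3.11.15, pandas 2.3.3, numpy 2.4.6 and scipy 1.17.1. Peak presence was scored in all 287329 regions and percentiles of fold enrichment among the 162505 in every list. Local background and pileup were recovered by inverting the Poisson test with a pseudocount of 1 in the ratio. The inversion and the percentile counts were tested on simulated peaks. For the inversion these had 1 exact ratio and p each, made with the same function, while the deposited values are averages over a peak. The error that averaging brings to the estimates was therefore not tested. Distances are from the centre of a region to the first RefSeq start site, annotation is that of the centre, and words were searched on both strands. Wilson intervals are at 95%. The genes, lists, words and thresholds were chosen with earlier results of these data known. Named regions are those over the start sites, the regions near *Pou5f1*, *Nanog* and the *Sox2* control region, the 3 highest and 3 lowest shifts and the strongest gained and lost region per comparison, and the other pluripotency promoters with the 2 highest and 2 lowest shifts at 8 h. Other regions named for *Nanog*, *Sall4*, *Pou5f1*, *Utf1*, *Lin28a*, *Zfp42*, *Dppa4* and *Sox2* were chosen after their values were seen. Some items that these rules would name are not reported here.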

Additional observations from a re-analysis of the deposited data

How the results depend on the processing

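Shares of member regions were recomputed with only peaks of a -log10 q of at least 5, with peaks merged within 200 bp, with windows of 25 kb (65 kb for *Sox2*), and with the width-weighted mean, -log10 q or estimated pileup in place of the highest fold enrichment. Of these shares 51 stayed inside the Wilson interval of the value in the report and 6 did not. With the minimum -log10 q, 17.3% of member regions were over 10 points higher at 1 h (14 of 81, and 12.6% of all regions), and 0% were gained at 1 h (0 of 121). With estimated pileup, 1.06% were higher and 4.26% lower at 1 h (8.61% each of all regions), 10.6% were lower at 8 h (15.1% of all) and 14.9% were higher in untreated cells (16.6% of all), so the shares of member regions past 10 points depend on the measure. Single shifts were recomputed with the width-weighted mean, -log10 q and estimated pileup. This was done only for the shared promoters of the member genes and for the highest and lowest region shifts chosen by rule per comparison. Of these shifts, none past 10 points turned in sign, and those that came within 10 points are given in the report or here. Other shifts past 10 points named in the report, including those of other pluripotency promoters, were not part of this check. By estimated pileup the shift in untreated cells was 3.92 points at the *Sall4* start region and -10.1 at that of *Dppa2*, and by -log10 q it was -11.2 at that of *Lin28a*. No paired analysis was possible because the deposited lists merge the replicates of a state, and for the same reason no replicate could be left out. The lists are of unequal depth, which limits what the absence of a weak peak shows.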
